A study of Mus musculus with 6 samples.

Results

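The integrated stress response (ISR) was examined here through Atf4, its central transcription factor, and 9 genes known as its targets or partners, namely Ddit3, Asns, Trib3, Chac1, Psat1, Phgdh, Sesn2, Ddit4 and Slc7a11. These 10 genes were taken by symbol from the 51733 gene symbols counted in each library, and all 10 were found. RNA-seq was performed on neural progenitor cells (NPCs) sorted as Sox2-positive from dissected neural tubes of C57BL/6 mouse embryos at E13.5, in mid-gestation. Libraries A to C are the 3 controls (genotype wildtype), and libraries D to F are the 3 Ybx1-KO samples (genotype YBX1KO, homozygous for the tm1Ley null allele of Ybx1 per the study's methods). The embryos carried a Sox2-eGFP reporter for the sort, and the methods describe the controls as siblings. The null allele is carried by the whole embryo and not only by the neural lineage, so cells around the NPCs carried it as well. Whether a library came from 1 embryo or from a pool is not given in the sources used here. The question was whether loss of Ybx1, a Y-box protein that binds DNA and RNA, went with a different level of these transcripts.

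In the ISR, kinases that sense amino acid shortage, unfolded proteins in the endoplasmic reticulum (ER), viral RNA or lack of heme phosphorylate the initiation factor eIF2alpha. General translation then slows, while translation of the Atf4 mRNA increases by way of upstream reading frames. Atf4 protein switches on genes for amino acid synthesis and uptake, tRNA charging and redox balance, and with Ddit3 it can lead to cell death. Counts of mRNA measure neither eIF2alpha phosphorylation nor Atf4 protein. In bulk samples, fewer cells of a type and less RNA per cell cannot be told apart.

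None of the 8 of these genes that could be tested passed the threshold between Ybx1-KO and control NPCs, and Trib3 and Slc7a11 were below the filter on low values. Atf4 itself lay at 106 ± 23.4 CPM (read counts scaled to a common library size) in control and 134 ± 86.7 CPM in Ybx1-KO NPCs (SD, n = 3 each). Sesn2 and Slc7a11 were higher in every Ybx1-KO library than in every control library, about 1.99-fold and 2.37-fold by the group means (Sesn2 was tested, and 4.99% of all tested genes lay higher in this way), and Asns was lower in every one, at 0.528 of the control mean, though it overlapped with total counts as the scale. The share of tested genes that lay lower was 8.16%. The other 7 genes overlapped between the groups, and of these Phgdh did not with total counts as the scale. Atf4 and Asns, a factor and its textbook target, stood at opposite ends in library D, where Atf4 was the highest of the 6 libraries and Asns the lowest. For Slc7a11 the value in library F was close, per kilobase, to that of olfactory receptor genes in the same library, at 1.01 times their count density.

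The libraries differed in depth. Counts on genes numbered 20841990 in A, 23883542 in B and 21574427 in C, and 8483075 in D, 13321952 in E and 4743279 in F. CPM were scaled with TMM factors (trimmed means of log ratios between libraries). The factors were 1.01, 0.902 and 0.919 in A to C, 1.04 in D, 0.727 in E and 1.57 in F. Values in F are thus lower, and those in E higher, than with total counts as the scale. A floor of 3 counts corresponded to 0.140 to 0.152 CPM in the control libraries, 0.340 CPM in D, 0.312 CPM in E and 0.426 CPM in F. Such limits cover counting error only. Library F stood apart. Read pairs outside genes made up 59.5% of this library and 30.6 to 46.7% of the other 5, and those on genes 7.22% and 18 to 24.7%. It held 5.18 counts per kilobase of exon over 1132 protein-coding olfactory receptor genes, which are silent in most tissues, with a count on 92.4% of them. The other 5 libraries held 0.0364 to 0.474 counts per kilobase there, with a count on 3.36 to 37.7% of those genes.

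The deleted gene was lower in each library labelled Ybx1-KO. Ybx1 stood at 239, 531 and 306 CPM in A to C and at 126, 55.3 and 9.66 CPM in D to F, without overlap. The two-sided exact permutation p was 0.1, below which 3 against 3 cannot go. Its log2 fold change was -2.49 (SE, the standard error of the fit, 0.675, with a BH-adjusted p = 0.301 by the quasi-likelihood test of edgeR). With all 6 libraries it was called by DESeq2, at -2.44 (adjusted p = 0.0236), and by edgeR without a filter, at -2.52 (adjusted p = 0.0214). It was also called without library D, at -3.49 (adjusted p = 8.61e-05), and without E, at -2.34 (adjusted p = 0.00114). The sorted cells held progenitor transcripts in all 6 libraries, with Sox2 at 17.5 to 50.6 CPM and Pax6 at 36.6 to 56.2 CPM. Neuron transcripts were present too, the summed level of 14 neuron markers being 2200 to 6580 CPM, so the libraries did not hold progenitor transcripts alone.

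The promoters of the 10 genes were read first for sequences that Atf4 or Ybx1 is known to recognise. Atf4 binds, with C/EBP partners, the C/EBP-ATF response element (CARE), searched here as TGATGNAA. Ybx1 was named for the Y-box, searched as CTGATTGG, whose complementary strand holds the CCAAT box. Both strands were searched in windows from 250 bases before to 50 bases after the annotated start (RefSeq, GRCm38.p6), which were found for all 10 genes. The CARE core was in 4 of the 10 windows (Asns, Trib3, Chac1 and Slc7a11) and in 3.97% of all 32851 windows in the table. The Y-box was in 5 (Atf4, Ddit3, Chac1, Psat1 and Sesn2) and in 4.1% of all windows. CCAAT was in 8 of the 10 and in 37.4% of all windows. A match is a description of the letters and was not tested as a site, and a window without a match says nothing of the factor.

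The CARE cores are shown because they mark the members whose promoters hold the letters of Atf4's own element, and they are read 5′ to 3′ on the gene's strand with the match in capitals. They lie at chr6:7693215-7693242 (minus strand) for Asns, chr2:152344029-152344056 (minus) for Trib3, chr2:119351029-119351076 (plus) for Chac1 and chr3:50443633-50443699 (minus) for Slc7a11, which holds the core on both strands.
Asns: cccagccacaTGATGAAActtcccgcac
Trib3: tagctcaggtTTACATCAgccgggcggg
Chac1: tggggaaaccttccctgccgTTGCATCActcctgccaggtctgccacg
Slc7a11: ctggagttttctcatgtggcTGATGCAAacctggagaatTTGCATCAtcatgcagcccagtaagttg

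The Y-boxes of Atf4, Ddit3 and Sesn2 are shown because these are the letters Ybx1 was named for, in the factor, in its partner and in the tested gene whose groups did not overlap upwards. They lie at chr15:80255088-80255135 (plus) for Atf4, chr10:127290693-127290740 (plus) for Ddit3 and chr4:132510525-132510636 (minus) for Sesn2, whose window held 2 copies, 160 and 96 bases before the RefSeq start.
Atf4: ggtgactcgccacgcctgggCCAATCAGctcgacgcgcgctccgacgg
Ddit3: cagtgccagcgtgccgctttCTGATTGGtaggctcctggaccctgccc
Sesn2: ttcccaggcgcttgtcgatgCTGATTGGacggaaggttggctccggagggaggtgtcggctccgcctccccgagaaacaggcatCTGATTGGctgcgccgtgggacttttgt
The window of Chac1 held a CARE core and a Y-box, and that of Psat1 a Y-box 6 bases before the RefSeq start. These Y-boxes of Chac1 and Psat1 are not printed. Genes with a Y-box went both ways and were not called, with log2 fold changes of 0.33 (Atf4), 0.25 (Ddit3), 0.99 (Sesn2), -1.12 (Chac1) and -0.26 (Psat1). The Trib3 core lay 14 bases after the RefSeq start. The windows and these distances follow RefSeq starts, which can differ from the ends of the GENCODE genes given below: that of Psat1 lies far inside the GENCODE gene, that of Asns a little inside it, and that of Trib3 a little outside it, so that the Trib3 core lies before the GENCODE start.

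Levels between genes were compared per kilobase of exon, as FPKM. In control NPCs, Atf4 had the highest mean of the 10 at 42.5 ± 11.8 FPKM (SD, n = 3), above 97.4% of the tested genes. Psat1 followed at 24.7 ± 5.05, Ddit4 at 22.9 ± 20.4 and Phgdh at 9.47 ± 0.342 FPKM. Ddit3 lay at 6.71 ± 1.29 and Asns at 5.41 ± 0.541 FPKM. At the low end were Chac1 at 1.78 ± 0.832, Sesn2 at 1.05 ± 0.162, Slc7a11 at 0.283 ± 0.128 and Trib3 at 0.232 ± 0.212 FPKM. Within this order, the control values of Psat1 and Ddit4, Ddit4 and Phgdh, Ddit3 and Asns, Chac1 and Sesn2, and Slc7a11 and Trib3 overlapped. Those of Atf4 and Ddit4 overlapped too, and in control C Ddit4, at 46.2 FPKM, exceeded Atf4, at 41 FPKM. In Ybx1-KO NPCs the order was the same apart from Sesn2, at 2.37 ± 0.561 FPKM, which stood above Chac1, at 1.23 ± 1.54 FPKM.

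The test covered 21330 genes whose mean FPKM exceeded 1 in control or Ybx1-KO libraries, and 8 of the 10 genes were among them. Each of these 8 passed in both groups, with the lowest means at 1.05 FPKM for Sesn2 in control and 1.23 FPKM for Chac1 in Ybx1-KO NPCs. Trib3 and Slc7a11 stayed under the filter in both groups. A call needed a fold change over 1.5 with an adjusted p under 0.05. Of the 8, 0 were called, against 0% of all tested genes higher and 0% lower. The smallest adjusted p was 0.167 over all genes (edgeR's quasi-likelihood test) and 0.469 among the 8, for Asns. At an unadjusted p below 0.05, 0 of the 8 passed, against 6.96% of tested genes higher and 4.26% lower. DESeq2 on the same genes called 118 genes higher and 96 lower but 0 of the 8. The count over all genes also hung on single libraries, with 29 higher and 44 lower without B, 531 and 165 without D, and 730 and 216 without E, and 0 of the 8 in each of these. Of the 8, 4 had a positive and 4 a negative log2 fold change, with a median of 0.052, against a median of 0.31 over all tested genes and 0.051 over the 13694 protein-coding ones. The biological coefficient of variation shared by all genes was 0.800, while each gene's interval below rests on its own fit.

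**Figure D1:**
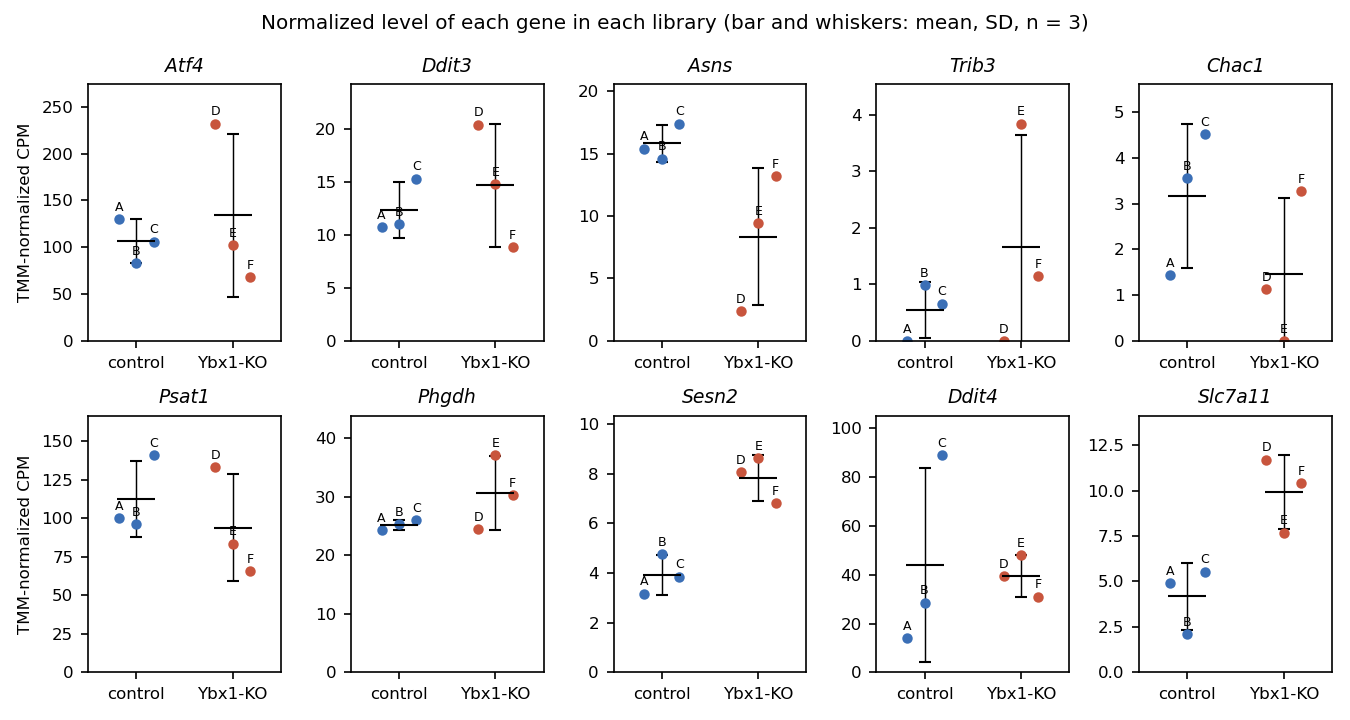
TMM-normalized CPM (vertical axes, linear from 0) of each of the 10 genes in control (A to C, blue) and Ybx1-KO (D to F, red) libraries, with the mean as a bar and the SD as whiskers (n = 3). The groups did not overlap in the panels of Asns, Sesn2 and Slc7a11, and for Asns they did with total counts as the scale.

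Atf4 lies on chromosome 15 of GRCm38 from 80255184 to 80257541. It stood at 130, 83.1 and 106 CPM in the controls and at 232, 102 and 68.1 CPM in the Ybx1-KO libraries, given here and below in the order A to F. Library D was the highest of the 6 and library F the lowest, so the Ybx1-KO libraries lay on both sides of the control range. With total counts as the scale D was still the highest, at 241 CPM, and F lay inside the control range, at 101 CPM. Library E was then the lowest, at 73.4 CPM, just below control B at 74.3 CPM. The log2 fold change was 0.33 with a 95% interval from -0.65 to 1.31 (SE 0.464, adjusted p = 0.744, and p = 0.9 in the two-sided exact permutation test). Its sign rested on library D, without which it was -0.38, while without F it was 0.68.

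Ddit3 encodes CHOP, the factor that joins Atf4 in the death arm of the response, and lies on chromosome 10 from 127290774 to 127296288. It stood at 10.7, 11 and 15.3 CPM in control and at 20.4, 14.8 and 8.81 CPM in Ybx1-KO libraries. As with Atf4, D was the highest library and F the lowest. With total counts as the scale D was still the highest, at 21.2 CPM, but F lay inside the control range, at 13.1 CPM against 9.8 to 14 CPM. The log2 fold change was 0.25 (SE 0.459, adjusted p = 0.804), and without D it was -0.11. The gene overlaps Mars and Gm4189 on the opposite strand, and the strand setting of the counting is not given in the sources used here, so its reads and theirs may not have been separated.

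The groups of Asns did not overlap either, and 1 of the 8 tested genes lay lower in this way, against 8.16% of all tested genes. Asns, which makes asparagine and is a classic target of Atf4, lies on chromosome 6 from 7675169 to 7693254. It stood at 15.4, 14.6 and 17.4 CPM in control and at 2.38, 9.45 and 13.2 CPM in Ybx1-KO libraries. The control libraries lay close together, and library D, with 21 counts, was the lowest by far. The log2 fold change was -0.92 with an interval from -2.10 to 0.25 (SE 0.555, adjusted p = 0.469), and the exact permutation p was 0.1, the smallest possible. The separation depended on the scaling: with CPM by total counts on genes the groups overlapped, and the exact permutation p was 0.4. It had the same sign with each library left out, from -1.42 without F to -0.57 without D. The CARE core printed above lies 23 bases before the RefSeq start, which is inside the GENCODE gene whose ends are given here.

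Psat1 and Phgdh encode enzymes of the pathway that makes serine from glycolysis. Psat1 lies on chromosome 19 from 15904678 to 15947337, where it overlaps a pseudogene, Gm3329, and Phgdh on chromosome 3 from 98313170 to 98339990. Psat1 stood at 100, 96.1 and 141 CPM in control and at 133, 83.6 and 65.6 CPM in Ybx1-KO libraries, with a log2 fold change of -0.26 (SE 0.406, adjusted p = 0.773), which ran from -0.66 without D to -0.038 without F. Libraries C and D were high and E and F low, so the groups overlapped. With total counts as the scale Psat1 in F lay inside the control range, at 97.4 CPM against 86 to 128 CPM. Phgdh, the first enzyme of that pathway, was the most even of the 10 among controls, at 24.3, 25.3 and 26 CPM. In Ybx1-KO libraries it stood at 24.5, 37.1 and 30.3 CPM, with D inside the control range and E and F above it. Its log2 fold change was 0.28 with an interval from -0.49 to 1.06 (adjusted p = 0.727). With total counts as the scale, Phgdh no longer overlapped, with Ybx1-KO higher (exact permutation p = 0.1), as for 5.87% of all tested genes.

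Sesn2 encodes a leucine sensor that restrains mTORC1 under stress and lies on chromosome 4 from 132492032 to 132510501. It stood at 3.17, 4.77 and 3.86 CPM in control and at 8.05, 8.62 and 6.82 CPM in Ybx1-KO libraries. The means were 3.93 ± 0.806 and 7.83 ± 0.920 CPM (SD, n = 3), and the lowest Ybx1-KO value exceeded the highest control value. That held for 1 of the 8 tested genes and for 4.99% of all tested genes. The log2 fold change was 0.99 with an interval from -0.37 to 2.35 (SE 0.643, adjusted p = 0.490, and exact permutation p = 0.1, the smallest possible). It ran from 0.85 to 1.16 when single libraries were left out, and the groups stayed apart with total counts as the scale. Each library held 48 to 102 counts of it. In library F its 13.8 counts per kilobase were 2.67 times the receptor gene density, and with that density subtracted in each library it stood at 5.17 CPM in F, still above the highest control at 4.67 CPM. The gene overlaps an unnamed transcript, Gm12981, and is also known as a p53 target. The list of 12 other p53 targets is given below.

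Ddit4, an mTORC1 inhibitor that also responds to hypoxia and glucocorticoids, lies on chromosome 10 from 59949669 to 59951834 and was uneven among controls. It stood at 13.9, 28.6 and 88.9 CPM in control and at 39.5, 47.9 and 31 CPM in Ybx1-KO libraries. The 3 values of Ybx1-KO NPCs fell between those of controls B and C. The log2 fold change of -0.15 (SE 0.525, adjusted p = 0.910) turned to 0.90 without control C, and to 0.26 with limma-voom and 0.034 with total counts as the scale.

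Chac1 and Slc7a11 bear on glutathione: Chac1 degrades it inside the cell, and Slc7a11 is the cystine transporter that feeds its synthesis. Chac1 lies on chromosome 2 from 119351229 to 119354381. It stood at 1.44, 3.56 and 4.52 CPM in control and at 1.13, 0 and 3.27 CPM in Ybx1-KO libraries, from 30, 76 and 89 and from 10, 0 and 23 counts. Library E held none, which at its depth allows up to 0.312 CPM. The log2 fold change was -1.12 with an interval from -4.07 to 1.83 (adjusted p = 0.713), and the groups overlapped. It ran from -2.45 without F to -0.37 without E, was -2.33 with limma-voom and -0.51 with total counts as the scale.

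Slc7a11 lies on chromosome 3 from 49892526 to 50443614 and stood at 4.89, 2.11 and 5.54 CPM in control and at 11.7, 7.68 and 10.4 CPM in Ybx1-KO libraries. The groups did not overlap, with Ybx1-KO higher (exact permutation p = 0.1, the smallest possible), also with total counts as the scale. It was under the FPKM filter because its annotated exons span 13922 bases, and under 3 other filters its log2 fold change ran from 1.12 to 1.34 with adjusted p from 0.502 to 0.557 (edgeR). In library F its 5.24 counts per kilobase were 1.01 times the density on olfactory receptor genes, so its 73 counts there are no more than such genes hold for their length. With that density subtracted it stood at 11.3 CPM in D, 7.43 CPM in E and 0.172 CPM in F, against 1.97 to 5.11 CPM in control, and the groups overlapped. Libraries D and E, where the receptor density was below that of every control library, stayed above all 3 controls. The annotated gene overlaps Gm37854 and several pseudogenes, and reads shared with them are uncertain.

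Trib3, a pseudokinase that feeds back on Atf4, lies on chromosome 2 from 152337422 to 152344032 and was near the limit of detection. It had 0, 21 and 13 counts in control and 0, 37 and 8 counts in Ybx1-KO libraries, or 0, 0.983 and 0.660 CPM and 0, 3.84 and 1.14 CPM. A library of each group held none, and library E was the highest. The 8 counts in F were fewer per kilobase than on olfactory receptor genes, at 0.726 of that density. In edgeR the log2 fold change of Trib3 was 1.47 without a filter (adjusted p = 0.745) and 1.63 with edgeR's own count filter (adjusted p = 0.786). Without library D it was 2.13 (adjusted p = 0.558). There Trib3 passed the FPKM filter only through the Ybx1-KO libraries, so the filter favoured that direction.

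**Figure D2:**
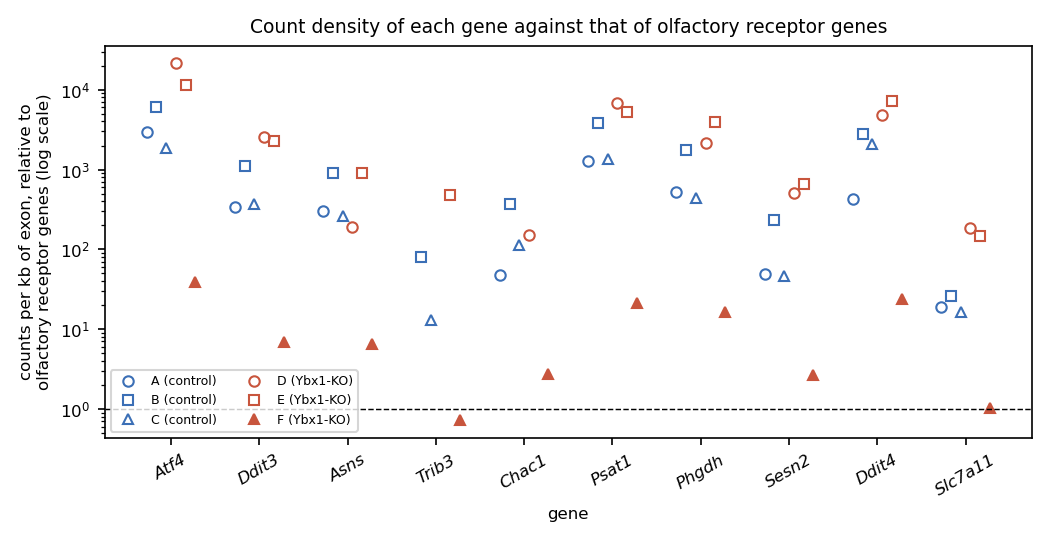
Counts per kilobase of exon of each gene divided by the counts per kilobase on olfactory receptor genes of the same library (vertical axis, log scale), for control (blue) and Ybx1-KO (red) libraries, with F filled. The dashed line marks equality, values of 0 are not drawn, and in library F Slc7a11 lies at 1.01 and Trib3 at 0.726 while Atf4 lies at 39.2.

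**Figure D3:**
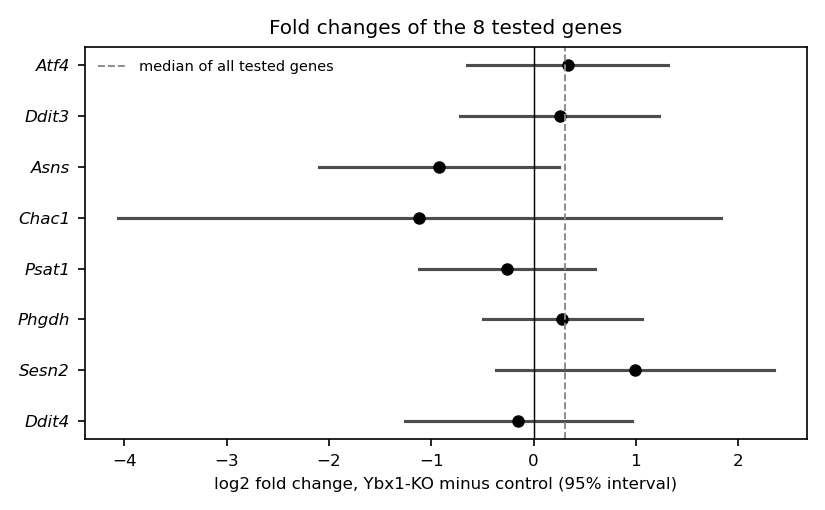
Log2 fold change of Ybx1-KO against control (horizontal axis) for the 8 tested genes, with 95% intervals from edgeR's quasi-likelihood fit of 3 against 3 libraries. All 8 intervals include 0, from -1.12 for Chac1 to 0.99 for Sesn2, and the dashed line marks the median of all tested genes at 0.31. The median of the tested protein-coding genes, not drawn, was 0.051.

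The range between libraries was wider in Ybx1-KO than in control NPCs for 7 of the 10 genes. The share of all tested genes with a wider range in Ybx1-KO was not counted. All Ybx1-KO libraries were shallower than the controls, and F is among them. The Ybx1-KO ranges of Trib3 (6.10) and Chac1 (6.01) rest on a library with 0 counts. Over all tested genes, the median range over the 3 libraries was 0.912 in control and 1.76 in Ybx1-KO on the log2 scale. For Atf4 the range was 0.64 in control and 1.77 in Ybx1-KO libraries, and for Asns 0.25 and 2.45. Sesn2, Slc7a11 and Ddit4 went the other way, with 0.59 and 0.33, 1.39 and 0.60, and 2.68 and 0.63. Taking the 8 tested genes together, the median deviation from the control mean was 0.26 in D, 0.12 in E and -0.16 in F, and -0.16, -0.13 and 0.24 in A, B and C. Library D thus carried high Atf4, Ddit3, Sesn2 and Slc7a11 with low Asns, and control C carried 9 of the 10 genes above the control mean.

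**Figure D4:**
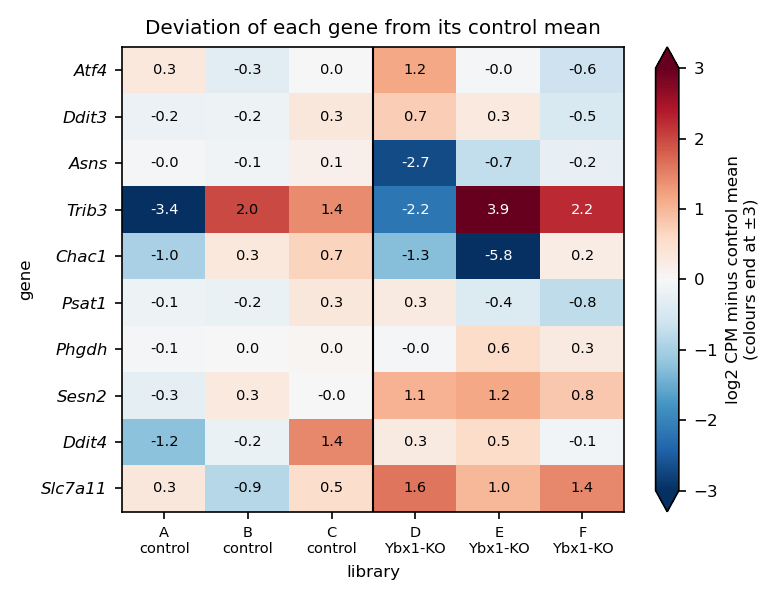
Log2 CPM of each gene in each library minus the mean of the 3 control libraries (0.5 counts added), as numbers and colours that end at 3 in either direction. Asns lies at -2.7 in D, Atf4 at 1.2 in D, and Sesn2 and Slc7a11 are positive in D, E and F.

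Across the 6 libraries, 22 of the 45 pairs among the 10 genes correlated positively in log2 CPM, with a median of -0.0064. The points share the libraries' depth and scaling and fall into 2 groups, so these values are a description. Atf4 and Ddit3 had a correlation of 0.80, Atf4 and Psat1 of 0.70, Sesn2 and Slc7a11 of 0.61, and Atf4 and Asns of -0.80. Of 9182 protein-coding genes with a mean above 10 CPM, those whose log2 CPM over the 6 libraries was most like that of Atf4 were Entpd5 (0.987), Cyp4f16 (0.982), Vegfa (0.982), Atpaf2 (0.980) and Tspan14 (0.980). Entpd5 had 11.3, 7.11 and 10.8 CPM in control and 36.9, 9.55 and 4.26 CPM in Ybx1-KO libraries, again with D highest and F lowest on this TMM scale. Vegfa, a growth factor for blood vessels, had 40.9, 25.5 and 30.4 CPM and 54.3, 31.3 and 21 CPM.

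The rest of the pathway was read from lists of 133 other genes, of which 117 were tested. Of these, 0 were called, 4 had an unadjusted p below 0.05 and were higher (3.42%, against 6.96% of all tested genes), and 8 were lower (6.84%, against 4.26%). The groups did not overlap for 7 that were higher (5.98%, against 4.99% of all tested genes) and 12 that were lower (10.3%, against 8.16%). With total counts as the scale these became 10 and 7 genes (8.55% and 5.98%, against 5.87% and 5.26% of all tested genes), so the balance of the directions turned with the scaling. The median log2 fold change was -0.073, against 0.31 over all tested genes and 0.051 over the 13694 protein-coding ones. The shares given here and below were taken over all tested genes, not over protein-coding ones alone.

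The sensors came first. Of the 4 eIF2alpha kinases, 0 differed and all overlapped. Eif2ak3 (PERK, which senses unfolded proteins in the ER) had 17.2, 19.1 and 12.5 CPM in control and 19.2, 15.2 and 22.2 CPM in Ybx1-KO libraries. Eif2ak4 (GCN2, the sensor of uncharged tRNA) had 21, 20.3 and 10.5 CPM and 11.2, 17.9 and 15.9 CPM. Eif2ak1 (HRI, the heme sensor) lay at 44.9 to 59 CPM over the 6 libraries with a log2 fold change of 0.0072, and Eif2ak2 (PKR, the sensor of double-stranded RNA) lay at 2.27 to 10.8 CPM. The phosphatase subunits that reverse the signal overlapped too. Ppp1r15a (GADD34), itself induced by Atf4, had 14.6, 7.58 and 5.39 CPM in control and 10.3, 3.84 and 6.82 CPM in Ybx1-KO libraries (log2 fold change -0.39, SE 0.601), and Ppp1r15b, the constitutive subunit, lay at 33.4 to 92.3 CPM.

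Among 8 subunits of eIF2, the target of the kinases, and of its exchange factor eIF2B, 2 had an unadjusted p below 0.05, both lower and both without overlap (against 4.26% and 8.16% of all tested genes). Eif2s1, which encodes eIF2alpha itself, stood at 80.1, 100 and 102 CPM in control and at 22.8, 73.4 and 38.6 CPM in Ybx1-KO libraries, with library D the lowest. Its log2 fold change was -1.06 (SE 0.435, adjusted p = 0.444), and it was called without library E, at -1.48 (adjusted p = 0.0309). Eif2s3x, the gamma subunit on the X chromosome, stood at 71.9, 68.9 and 73.6 CPM and at 42.3, 45.1 and 31.1 CPM, with a log2 fold change of -0.85 (SE 0.362, adjusted p = 0.444). Both Eif2s1 and Eif2s3x stayed without overlap with total counts as the scale. The study used mice of both sexes, and the sex behind each library is not given in the sources used here. The part of sex in the level of the X-linked Eif2s3x was not tested. The beta subunit gene Eif2s2, at 82.1 to 155 CPM, overlapped. Eif2b4 had 10.7, 11 and 14.8 CPM in control and 23.7, 24.7 and 14.6 CPM in Ybx1-KO libraries (log2 fold change 0.79, SE 0.421), F lying within the control range. With total counts as the scale Eif2b4 was higher in Ybx1-KO libraries without overlap (exact permutation p = 0.1), as were 5.87% of all tested genes.

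Of 7 partners and cofactors of Atf4, 5 were tested, 0 passed and 1 lay lower without overlap (against 8.16% of all tested genes). Cebpg, a C/EBP factor that dimerises with Atf4 on CARE sites, had 62.1, 52.1 and 57.3 CPM in control and 23.6, 35.4 and 46.7 CPM in Ybx1-KO libraries (log2 fold change -0.70, SE 0.378, adjusted p = 0.451), and its groups overlapped with total counts as the scale. Atf5 stood at 10.6, 20.9 and 49.4 CPM and at 20.6, 28.9 and 16.9 CPM, with control C highest as for Ddit4. Nfe2l2 lay at 7.37 to 13.8 CPM and Jdp2 at 1.81 to 4.21 CPM. Nupr1 had 6.54 CPM in library F and at most 0.480 CPM in any other, with 0 counts in C, D and E. Nupr1 passed the FPKM filter only through library F, so the filter favoured that direction. Atf3 at 0.113 to 3.98 CPM and Cebpb at 0 to 1.47 CPM were under the filter, with Atf3 highest in F.

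Of 11 genes of serine, one-carbon and proline synthesis, 9 were tested, 4 positive and 5 negative. Without overlap, 2 lay higher and 1 lower (against 4.99% and 8.16% of all tested genes). An unadjusted p below 0.05 was found for 1, which was higher (against 6.96% of all tested genes). That was Pycr1, the last enzyme of proline synthesis, at 7.44, 13.8 and 14.8 CPM in control and at 40.1, 23.6 and 15.9 CPM in Ybx1-KO libraries, without overlap (log2 fold change 1.14, SE 0.455, adjusted p = 0.438). Shmt2, which makes glycine from serine in mitochondria, was also higher in every Ybx1-KO library, in either scale, with 35.4, 32 and 35.9 CPM against 36.4, 53.1 and 39.9 CPM (log2 fold change 0.32, exact permutation p = 0.1). Aldh1l2, a mitochondrial folate enzyme, was lower in every Ybx1-KO library, with 35.1, 40 and 32 CPM against 6.01, 29.5 and 23.4 CPM (log2 fold change -0.86), and overlapped with total counts as the scale. Mthfd1l had 6.81, 10.8 and 3.81 CPM and 6.58, 16.6 and 18.5 CPM. Among 8 amino acid transporters, 7 were tested and all 7 overlapped. With total counts as the scale Slc3a2, a shared subunit of several of these transporters, was higher in Ybx1-KO libraries without overlap (exact permutation p = 0.1). Of all tested genes, 5.87% lay higher in this way on that scale. Slc38a2 lay at 137 to 302 CPM. Slc1a4 had 31.7, 27.2 and 30.4 CPM in control and 34.5, 15.6 and 10.9 CPM in Ybx1-KO libraries, with D above all controls and E and F below them (log2 fold change -0.55, SE 0.438, and -1.22 without D). Slc1a5 had a log2 fold change of 0.78 (SE 0.743), with library D, at 1.70 CPM, below every control. Slc1a5 passed the FPKM filter only through the Ybx1-KO libraries, so the filter favoured that direction.

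Atf4 is known to switch on many cytosolic tRNA synthetases. All 12 such genes on the list were tested and all overlapped between the groups, with log2 fold changes between -0.32 for Eprs and 0.32 for Aars, next to Cars at 0.28, and a median of -0.099. The 8 other cytosolic synthetases ranged more widely, with 1 above control and 3 below without overlap (against 4.99% and 8.16% of all tested genes). Vars stood at 22, 32.7 and 27.3 CPM in control and at 62, 62.6 and 40.8 CPM in Ybx1-KO libraries (log2 fold change 1.01, SE 0.374, adjusted p = 0.432). Farsb stood at 75.9, 60.3 and 77.8 CPM and at 38.8, 42.5 and 38.1 CPM (log2 fold change -0.84, adjusted p = 0.444). Rars had a log2 fold change of -0.50 and Dars one of -0.34. All 3 lower genes overlapped with total counts as the scale, and Vars did not. No difference between the lists was tested.

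Of 11 further targets of Atf4 or Ddit3, 7 were tested, and 1 lay higher and 1 lower without overlap (against 4.99% and 8.16% of all tested genes). Vldlr, a lipoprotein receptor, was the lowest by p, at 69.4, 46.6 and 38.7 CPM in control and at 8.96, 26.9 and 20.3 CPM in Ybx1-KO libraries (log2 fold change -1.46, SE 0.440, adjusted p = 0.362), without overlap in either scale, and it was called without library E, at -1.67 (adjusted p = 0.0117). Bbc3, which encodes the death protein Puma and is also a p53 target, had 2.54, 2.48 and 2.49 CPM against 9.3, 2.91 and 4.69 CPM, and its groups overlapped with total counts as the scale. Tnfrsf10b, a death receptor, had 12.5 CPM in F and 1.14 to 3.17 CPM in the other 5 libraries. Tnfrsf10b passed the FPKM filter only through the Ybx1-KO libraries, so the filter favoured that direction. The secreted stress signals Gdf15 and Fgf21 were at or near 0 counts, with 1.14 CPM of Gdf15 in F, at 0.833 of that library's receptor gene density, and 0 in the rest, and 0.113 CPM of Fgf21 in D and 0 in the rest.

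**Figure D5:**
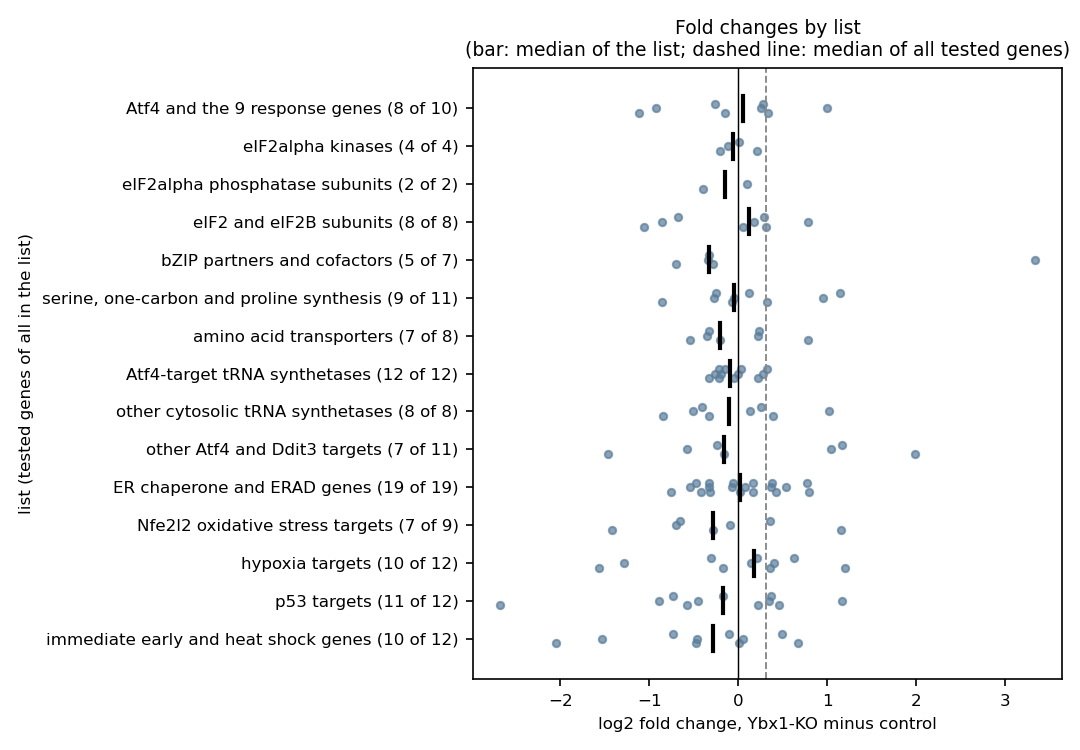
Log2 fold change of Ybx1-KO against control (horizontal axis) of each tested gene in Atf4 with the 9 response genes and in 14 lists of related pathways (vertical axis, with the number tested of all in the list). Bars mark list medians, which run from -0.33 to 0.17, and the dashed line marks the median of all tested genes at 0.31. The median of the tested protein-coding genes, not drawn, was 0.051.

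The other arms of the stress response were read as well. Of 19 ER chaperone and degradation genes under Atf6 and Xbp1, all were tested, 10 were positive and 9 negative, and all 19 overlapped. With total counts as the scale 3 of them did not, Dnajc3 being lower and Hyou1 and Syvn1 higher in Ybx1-KO libraries (exact permutation p = 0.1 each). On that scale 5.26% of all tested genes lay lower and 5.87% higher without overlap. Dnajc3, an inhibitor of PERK, had 52.7, 44.8 and 33.7 CPM in control and 17.7, 39.5 and 20.2 CPM in Ybx1-KO libraries. Herpud1, a gene of ER-associated degradation that also responds to Atf4, had 8.11, 7.21 and 9.15 CPM and 26.1, 12.4 and 3.84 CPM, again with D highest and F lowest, and Sdf2l1 had 6.32 to 10.7 CPM and 9.45 to 16.3 CPM.

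Of 9 oxidative stress targets of Nfe2l2, 7 were tested, and 1 lay higher and 2 lower without overlap (against 4.99% and 8.16% of all tested genes). Gclm and Gclc, the subunits of the enzyme that starts glutathione synthesis, were both lower in every Ybx1-KO library. Gclm stood at 22.6, 23.4 and 25 CPM in control and at 6.35, 11 and 9.24 CPM in Ybx1-KO libraries (log2 fold change -1.42, SE 0.423, adjusted p = 0.359), in either scale, and Gclc at 29.6, 35.7 and 35 CPM and 23.2, 19.7 and 20.6 CPM (log2 fold change -0.66), which overlapped with total counts as the scale. Srxn1, which repairs peroxiredoxins, went the other way, at 6.14, 10.1 and 7.72 CPM and 25.5, 14.8 and 12.9 CPM (log2 fold change 1.16, SE 0.471, adjusted p = 0.444).

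Of 12 hypoxia targets, 10 were tested. Slc2a1, the glucose transporter Glut1, stood at 27.5, 39 and 41.1 CPM in control and at 66.8, 120 and 59.7 CPM in Ybx1-KO libraries, without overlap (log2 fold change 1.20, SE 0.400, adjusted p = 0.405 in edgeR and 0.0449 in DESeq2). Egln3, an oxygen sensor, was the other gene without overlap, higher in either scale, at 5.95, 5.99 and 4.32 CPM and 7.37, 8.72 and 9.09 CPM (log2 fold change 0.63), and 4.99% of all tested genes lay higher in this way. Ndrg1 had 17.3, 2.2 and 23.3 CPM and 0.113, 5.4 and 8.95 CPM, and Ankrd37 0.415 to 6.05 CPM over all 6 libraries. Ndrg1 passed the FPKM filter only through control libraries, so the filter favoured the lower direction. Of 12 p53 targets, 11 were tested, 5 positive and 6 negative. Perp, a membrane protein of cell death, had 4.49 to 13.6 CPM in control and 0, 1.14 and 3.84 CPM in Ybx1-KO libraries (log2 fold change -2.68, SE 1.00, adjusted p = 0.432), and was called without a filter, at -2.95 (adjusted p = 0.0423), and without library D, at -2.20 (adjusted p = 0.0498). Ccng1 had 50.7, 58.4 and 40.7 CPM against 40.6, 27.5 and 22.2 CPM, and Sesn1, the p53-regulated relative of Sesn2, had 45, 25.4 and 44.5 CPM against 38.8, 12.9 and 10.1 CPM, which overlapped. The log2 fold change of Sesn1 was -0.89 (adjusted p = 0.451), and it was -0.54 without F and was called without D, at -1.80 (adjusted p = 0.0104). Of the p53 targets, 2 lay lower without overlap, Perp and Ccng1, and 1 higher, Bbc3 (against 8.16% and 4.99% of all tested genes). Each of them overlapped with total counts as the scale.

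Genes that respond within minutes to handling of cells were unequal among the libraries. Of the 12 immediate early and heat shock genes on the list, 10 were tested, 4 positive and 6 negative. Egr1 stood at 870, 222 and 295 CPM in control and at 179, 270 and 30.1 CPM in Ybx1-KO libraries, Fos at 112, 21 and 24.1 CPM and 11.8, 23.6 and 2.42 CPM, and Fosb at 67.9, 32 and 23.6 CPM and 29.3, 37.7 and 7.39 CPM. Control A was the highest and F the lowest for all 3 genes, and the groups overlapped. Of the other genes on the list, some were also highest in A and others in C, D or E. With total counts as the scale Fos and Egr1 were lower in Ybx1-KO libraries without overlap (exact permutation p = 0.1 each, against 5.26% of all tested genes). Their log2 fold changes were -2.05 for Fos and -1.54 for Egr1, and without control A they were -0.86 and -0.72. Fos was called with all 6 libraries when no filter was used, at -2.06 (adjusted p = 0.0151), and with libraries of a shared title number summed, at -2.15 (adjusted p = 0.0119). Fos was also called without D, at -2.01 (adjusted p = 0.00339), and without E, at -2.82 (adjusted p = 2.89e-06), and Egr1 without E, at -2.10 (adjusted p = 0.00731). The 12 genes of this list summed to 1400, 540 and 738 CPM in control and to 663, 741 and 191 CPM in Ybx1-KO libraries. Egr1 made up 870 of the 1400 CPM in A. The part of these genes in the levels of Atf4 and its targets was not tested.

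Markers of other cells moved among the libraries as well, and their part in the results above was not tested. None of these marker genes was called in the edgeR fit of all 6 libraries, and their calls by other tools were not examined. Each list is given with the gene of the highest mean CPM, not scaled for length, over the 6 libraries, which need not be the highest in each library. The 9 mesenchyme and meninges markers summed to 930, 172 and 237 CPM in control and to 152, 160 and 96 CPM in Ybx1-KO libraries (Col3a1, highest only in A, with Col1a2 highest in B to F), and 5 of the 8 tested had an unadjusted p below 0.05, all lower (against 4.26% of all tested genes, and 6.96% higher). The median log2 fold change of that list was -1.79. It was -0.58 without control A and -2.19 to -1.66 without any other library. At an unadjusted p below 0.05, 3 of 8 neural crest and Schwann markers were higher, 3 of 7 erythroid, 1 of 5 choroid plexus and 1 of 4 microglia and macrophage markers were lower, and of 14 neuron markers 1 was higher and 1 lower. Among the genes so counted, Dcn and C1qb passed the FPKM filter only through control and Foxd3 only through Ybx1-KO libraries, so the filter favoured their direction. The 6 choroid plexus markers summed to 811, 125 and 1040 CPM and to 106, 136 and 91.4 CPM. Ttr, with the highest mean, had 704, 38.6 and 951 CPM and 48.9, 56.4 and 19.7 CPM, below Otx2 in B and in each Ybx1-KO library, and Folr1 was at 0 in E. The 7 erythroid markers (Hbb-y, with Hbb-bs higher in A and C) summed to 1170, 618 and 479 CPM and to 900, 260 and 154 CPM. The 8 neural crest and Schwann markers (Tfap2b) summed to 213, 512 and 205 CPM and to 568, 476 and 255 CPM. The 7 endothelial markers (Cdh5) summed to 54.7, 24.1 and 28.7 CPM and to 13.9, 19.4 and 64.6 CPM, with Emcn at 0 in E. The 7 microglia and macrophage markers (Csf1r) summed to 45.4, 10.9 and 17.7 CPM and to 3.52, 6.75 and 40.8 CPM, with C1qb at 0 in D and E, C1qa, Tyrobp and Aif1 at 0 in D and Ptprc at 0 in E. In library F the microglia and macrophage markers held 8.72 counts per kilobase, 1.68 times the density on olfactory receptor genes, with Ptprc at 1.14 times, and the endothelial and mesenchyme markers lay at 1.97 and 1.99 times. The 14 neuron markers (Dcx) summed to 3720, 6580 and 4510 CPM and to 5300, 4750 and 2200 CPM. The 12 neural progenitor markers (Fabp7) summed to 1740, 1690 and 1870 CPM and to 2110, 1800 and 1280 CPM. Of these 12 genes, 4 had an unadjusted p below 0.05 and were higher (Nes, Hes1, Hes5 and Notch1) and 1 was lower (Slc1a3, at 93.2, 37 and 76 CPM in control and 21.7, 23.9 and 14.5 CPM in Ybx1-KO libraries), against 6.96% and 4.26% of all tested genes. With TMM scaling the progenitor sum was lowest in F, where Atf4 was also lowest, and highest in D, where Atf4 was highest. With total counts as the scale Atf4 stood at 101 CPM in F, inside the control range of 74.3 to 130 CPM. It was then lowest in E, at 73.4 CPM, so the parallel in F did not hold on that scale.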

How the data were processed

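Total RNA of Sox2-sorted NPCs was sequenced from stranded libraries (paired-end). The authors mapped the read pairs (the submitters' processing notes name mm10 and GRCm38.p5), counted them on GENCODE genes with HTSeq 0.6.1p1 and deposited raw counts per gene symbol, 1 table per library, without normalization or filter. The aligner and the strand setting are not given in the sources used here. Totals on genes ran from 4743279 to 23883542. The methods call the controls siblings or littermates, but which library came from which embryo or litter is not given in the sources used here, so p-values measure only the spread between these libraries. A and B share a number in their titles, as do D and E.

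Counts were normalized by TMM and tested with edgeR 4.0.16 (quasi-likelihood, no covariate, Benjamini-Hochberg over all tested genes) in R 4.3.3, after a filter of mean FPKM above 1 in either group. The study used limma-voom, run as an alternative (limma 3.58.1), as was DESeq2 1.42.0. FPKM used exon unions of GENCODE M21 on GRCm38 (47624 symbols matched, 359 by older symbol, 3750 not) and totals on genes. The fits were also run on simulated data with 200 genes changed. The simulation held no library with a background like that of F, and no result above rests on it. Plots were made in Python 3.11.15 (matplotlib 3.10.9). Members, lists and tests were chosen with earlier results of these data known. Genes were named by a rule: all members, kinases, phosphatase subunits and partners, the 3 smallest p of each other pathway list, the 5 most like Atf4, and each marker list's most abundant gene and genes at 0. Eif2s2, Slc3a2, Hyou1, Syvn1, Gdf15, Fgf21, Sox2, Pax6, Nes, Hes1, Hes5, Notch1, Slc1a3, Shmt2, Egln3, Dars, Col1a2, Hbb-bs and Otx2 fall outside it and were named after their values were seen. The receptor density was added after the data were seen.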

Additional observations from a re-analysis of the deposited data

Results flagged for a closer look

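Read pairs that fell outside genes are not part of the comparison above, and their share was 59.5% in Ybx1-KO library F, above the 46.7% of the highest control library. Library F also held counts on 39553 genes, the most of the 6, at the lowest total. In the same library Slc7a11 and Trib3 lay at 1.01 and 0.726 times the count density of olfactory receptor genes. Sesn2 and Chac1 lay at 2.67 and 2.71 times, Ddit3 and Asns at 6.98 and 6.56 times, and Phgdh, Psat1, Ddit4 and Atf4 at 16.5 to 39.2 times. Groups of 3 libraries are too small for a test of single outlying values.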

How the results depend on the processing

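Over 19 alternatives, 0 of the 10 genes were called in any that tested them, and Trib3 and Slc7a11 were each tested in 3. Calls over all genes moved from 0 higher and 0 lower to 118 and 96 with DESeq2, 113 and 80 without a filter, and 139 and 68 with libraries of a shared title number summed. With each library left out they ran from 0 to 730 higher and from 0 to 216 lower, reaching 29 and 44 without B, 531 and 165 without D, and 730 and 216 without E, and the cause was not tested. The median of the 8 tested genes ran from -0.298 (without D) to 0.322 (without control C), and was -0.0536 without a filter and -0.300 with summed libraries. Total counts as the scale moved the median of all tested genes from 0.310 to 0.535. Asns, Chac1, Psat1, Phgdh and Sesn2 kept their sign in every alternative. The sign was followed for 58 tested genes, namely Ybx1 and those that the rule named outside the marker lists. Of these, 41 kept their sign in every alternative. The marker genes and the genes named outside the rule were not followed.

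The sign turned for Ddit3 (-0.0539 with summed libraries, -0.113 to 0.531 with a library left out), Ddit4 (0.255 with limma-voom, 0.0338 with total counts, -0.595 to 0.895) and Atf4 (-0.384 to 0.676). It also turned for Eif2ak1 (-0.102 without a filter, -0.147 summed, -0.14 to 0.13), Eif2ak4 (0.00618 with total counts), Ppp1r15a (-0.879 to 0.116), Ppp1r15b (-0.0765 summed, -0.216 to 0.405), Atf5 (-0.686 to 0.492), Eprs (0.0967 with offsets for exon length), Cars (-0.168 to 0.57) and Herpud1 (-0.041 to 1.26). Eif2ak2 was 0.0225 with DESeq2, 0.0229 with its size factors in edgeR, 0.0467 with upper quartile factors, 0.299 with total counts, 0.0418 with protein-coding genes only, 0.162 summed and -0.888 to 0.208 with a library left out. Among the genes most like Atf4, the ranges were -0.533 to 1.28 for Entpd5, -0.369 to 0.39 for Cyp4f16 (-0.0464 summed), -0.361 to 0.429 for Vegfa (-0.0696 summed), -0.312 to 0.667 for Atpaf2 and -0.24 to 0.663 for Tspan14, each lowest without D. The cause was not tested. No paired analysis was possible because the labels give no number that a control and a Ybx1-KO library share, and replicates were numbered in accession order. With 3 libraries a group, the interval of Sesn2 spanned -0.37 to 2.35, so changes of that size could not be told from none.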
